A study of Mus musculus with 42 samples.

Results

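The expression of 10 genes was described in 3 fractions of mouse spleen, labelled B, T and non-BT: the S100 genes S100a4, S100a6, S100a10 and S100a11, the galectin gene Lgals1, the annexin genes Anxa1 and Anxa2, and the cytoskeletal genes Capg, Vim and Ahnak. They were taken by symbol from the Ensembl identifiers of the expression tables, 10 of 47719 genes, as genes known to mark activated or memory lymphocytes. The rule names no threshold, but the list was chosen by a reading of earlier results on these FPKM values, with no single contrast named, so counts over the 10 genes are descriptions and each gene is read from its own test among all genes. The animals were homozygous for a G201V change in Psmb8, which encodes an immunoproteasome subunit (Psmb8 G201V/G201V), or wild type (Psmb8 +/+), and were labelled Old or Young. Each cell type had 3 old homozygous, 3 old wild-type, 4 young homozygous and 4 young wild-type libraries, 42 in 12 groups in all. All animals were untreated. Their age in weeks, strain and sex, the way the cells were separated and whether a library came from 1 animal are not given in the labels, and the replicates' p-values measure the spread between these libraries. The young wild-type libraries numbered 4 carry the title WT but a genotype entry that reads Psmb9 +/+. They were counted as wild type.

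S100 proteins are small proteins, and most of them, though not S100A10, bind calcium and then dock on partner proteins. S100A10 forms a tight complex with annexin A2 at the inner face of the plasma membrane, where the very large scaffold protein AHNAK also binds, and S100A11 binds annexin A1. Annexins bind membrane lipids when calcium rises. Galectin-1 binds sugar chains on surface glycoproteins such as CD7, CD43 and CD45 of T cells. CapG caps actin filaments and vimentin builds intermediate filaments, and both take part in cell shape and movement. Genes of this kind are expressed more highly in effector and memory than in naive lymphocytes and are abundant in monocytes, macrophages and neutrophils.

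Levels are given as FPKM, fragments scaled by transcript length and by the mapped fragments of the library, so that levels can be compared between genes. The depth was estimated, in units of 1000000 fragments, at 9.48 to 25.89 per library (median 18.75), and 10905 to 12696 genes per library reached 1 FPKM. The labelled cell types carried their defining markers. Cd79a, a B cell receptor signalling chain gene, stood at 1540.3 to 2129 FPKM in B cells and at 79.7 FPKM or less elsewhere, Cd3e, a T cell receptor chain gene, at 261 to 382 FPKM in T cells and at 72.1 FPKM or less elsewhere, and Lyz2, a lysozyme gene of myeloid cells, at 7033 FPKM or more in non-BT cells and at 1541 FPKM or less elsewhere. Myeloid RNA was therefore present in B and T cell libraries, by Lyz2 below its non-BT level. The macrophage gene C1qb had another order in young wild-type animals. It stood at 177 to 271 FPKM in B cells, 63.8 to 104 FPKM in T cells and 23.9 to 34.5 FPKM in non-BT cells. The fibroblast gene Dcn was at 0 in all B and T cell libraries. Col1a1, another fibroblast gene, was not at 0 in all of them and reached 0.274 FPKM in B cells and 0.670 FPKM in T cells. Leaving out the old libraries numbered 2 was an alternative chosen after seeing the data. Results that use old libraries are given without those numbered 2, by gene or as a count in the closing section, where that changes a call. The libraries are unstranded, and Anxa1 overlaps 1500015L24Rik, Anxa2 overlaps Gm16144 and S100a4 overlaps Gm42674, whose fragments cannot be told apart by strand. In the FPKM values 1500015L24Rik was at 0 in all libraries, Gm42674 at 0.0336 FPKM or less and Gm16144 at 1.27 FPKM or less. In bulk RNA, fewer cells of a type and less RNA per cell cannot be told apart.

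The start regions of the genes are shown for S100a6, whose level differed most often between groups below, for S100a4 of the same gene cluster and for Anxa2, whose young B cell difference had the other sign. S100a4 (ENSMUSG00000001020, GRCm38 chromosome 3, 90603771 to 90606045) and S100a6 (ENSMUSG00000001025, chromosome 3, 90612882 to 90624181) lie close together on the plus strand, with S100a5 between them, and S100a11 (93520488 to 93526287) and S100a10 (93555080 to 93564643) lie further along the same chromosome. Anxa2 (ENSMUSG00000032231) lies on chromosome 9 at 69453620 to 69491795, plus strand. The 250 bases upstream of the RefSeq start of each, on GRCm38.p6, read 5′ to 3′ as follows, with motif letters in capitals:
S100a6, chr3:90612644-90612893, plus strand: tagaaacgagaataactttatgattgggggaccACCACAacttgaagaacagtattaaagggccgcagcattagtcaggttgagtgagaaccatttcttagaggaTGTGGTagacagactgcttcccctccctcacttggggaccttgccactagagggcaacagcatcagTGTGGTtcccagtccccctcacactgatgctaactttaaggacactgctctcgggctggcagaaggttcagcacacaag
S100a4, chr3:90603520-90603769, plus strand: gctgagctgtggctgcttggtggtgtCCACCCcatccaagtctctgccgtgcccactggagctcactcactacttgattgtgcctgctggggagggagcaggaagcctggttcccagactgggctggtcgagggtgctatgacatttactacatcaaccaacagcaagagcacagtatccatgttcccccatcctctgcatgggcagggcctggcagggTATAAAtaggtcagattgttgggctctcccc
Anxa2, chr9:69453433-69453682, plus strand: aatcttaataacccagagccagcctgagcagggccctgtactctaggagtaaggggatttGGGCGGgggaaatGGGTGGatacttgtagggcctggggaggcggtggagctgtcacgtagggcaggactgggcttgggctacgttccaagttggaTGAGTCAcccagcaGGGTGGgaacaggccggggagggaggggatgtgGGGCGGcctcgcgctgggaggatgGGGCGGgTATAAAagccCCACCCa

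Motifs were searched on both strands and none contains another: TGANTCA for AP-1, GGGCGG for the GC box, CCACCC for the CACCC box, TGTGGT for RUNX and TATAAA for the TATA box. The S100a6 window held the RUNX letters at 3 places and none of the other motifs. It was the only window with RUNX letters among the 8 of the 10 genes that had one, against 14% of all 32851 windows. The AP-1 letters were found upstream of S100a11 and Anxa2 (6.75% of all windows), the GC box upstream of S100a11, Anxa2 and Ahnak (32.7%), the CACCC box upstream of Vim, S100a4, Capg, Anxa2 and Ahnak (28.1%) and the TATA box upstream of Vim, S100a4, Anxa2 and Anxa1 (12.4%). A match is a stretch of letters and says nothing of binding.

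Most of the 10 genes were lowest in B cells, intermediate in T cells and highest in non-BT cells. S100a4 averaged 167 ± 36.2 FPKM in non-BT cells, 40.6 ± 11.5 in T cells and 1.37 ± 0.67 in B cells (SD, n = 14 each). S100a6 averaged 679 ± 137, 286 ± 107 and 33.7 ± 17.5 FPKM in the same order of non-BT, T and B cells. Every non-BT library lay above every T cell library and every T cell library above every B cell library for both genes. Anxa1, whose protein restrains inflammation through formyl peptide receptors, and Anxa2, which assembles with S100A10, had the same order. Anxa1 averaged 688 ± 296 FPKM in non-BT cells, 52.8 ± 18.8 in T cells and 16.8 ± 4.41 in B cells, with the lowest T cell library and the highest B cell library both at 27.0 FPKM after rounding. Anxa2 averaged 640.3 ± 93.2, 210.2 ± 43.6 and 32.7 ± 14.4 FPKM in non-BT, T and B cells.

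S100a11 averaged 1311 ± 209 FPKM in non-BT cells, against 379 ± 91.4 in T cells and 247 ± 43.3 in B cells. It was the most abundant of the 10 genes in non-BT cells. Capg, S100a10 and Lgals1 had another order. Capg was highest in B cells, at 574 ± 70.9 FPKM, against 181 ± 40.3 in non-BT cells and 128 ± 50.7 in T cells, and every B cell library lay above every other library. S100a10 and Lgals1 were highest in T cells: S100a10 averaged 419.9 ± 65.7 FPKM in T cells, 228 ± 70.3 in non-BT cells and 241 ± 36.1 in B cells. Lgals1 averaged 313 ± 98.8 FPKM in T cells, 211 ± 59.7 in non-BT cells and 56.8 ± 48.0 in B cells. The partners S100a10 and Anxa2 therefore stood in different proportion, with S100a10 above Anxa2 in B and T cells and below it in non-BT cells. Vim averaged 332 ± 66.9, 180.4 ± 31.1 and 128 ± 16.1 FPKM in non-BT, T and B cells, and Ahnak 23.1 ± 8.37, 14.4 ± 3.56 and 4.20 ± 1.94 FPKM.

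All 10 genes passed the threshold between each pair of cell types (limma, Benjamini-Hochberg adjusted p under 0.05 over 15143 genes), at a background of 55.0% of genes called for T over B cells, 68.7% for non-BT over B cells and 64.4% for non-BT over T cells, so the count carries little about these genes. The log2 fold change of T over B cells was 4.18 ± 0.13 (SE) for S100a4, 3.12 ± 0.11 for S100a6, 2.71 ± 0.10 for Anxa2 and 2.59 ± 0.16 for Lgals1, and -2.20 ± 0.09 for Capg, with adjusted p of 3.6e-16 or less. On this scale, log2(FPKM + 1), the change of low values such as S100a4 in B cells is understated. The smallest change was S100a10 in non-BT over B cells, -0.18 ± 0.08 (limma adjusted p = 0.043), and this call was lost without the Psmb9-labelled libraries (0.051) and without an animal block (0.052), and it was kept without each of 26 of the 42 libraries and missed without each of the other 16.

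**Figure D1:**
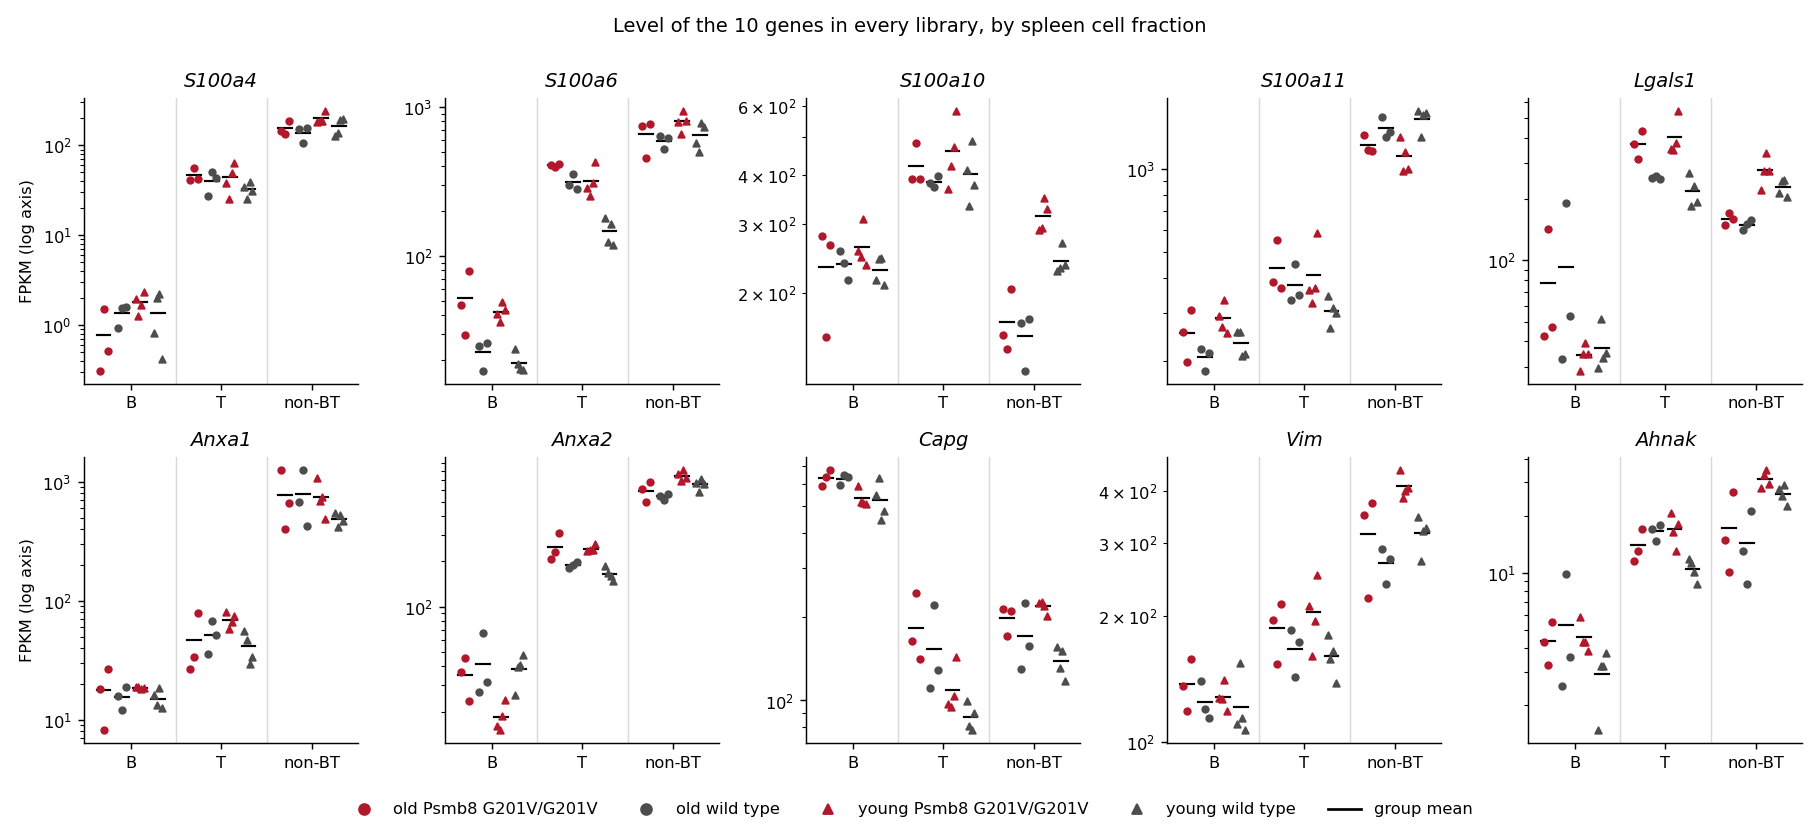
FPKM (log axis) of the 10 genes in all 42 libraries, by cell type, with old animals as circles, young animals as triangles, homozygous in red, wild type in grey and the group mean as a bar. S100a4, S100a6, Anxa1 and Anxa2 climb from B to T to non-BT cells, while Capg is highest in B cells, between 445 and 675 FPKM.

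Within a cell type the groups overlapped far more. When the 12 group means of a gene were ordered, there were 11 pairs of neighbours, and of these the ranges were apart in 4 pairs for S100a6, 3 for Anxa2, 2 each for S100a4, S100a10, Lgals1, Anxa1 and Capg, 1 each for S100a11 and Vim, and none for Ahnak. The highest group mean of S100a4, 199.8 FPKM in young homozygous non-BT cells, was 253 times the lowest, 0.790 FPKM in old homozygous B cells. At 1 FPKM the short S100a4 transcript stands for an estimated 9.0 to 15.1 fragments in B cell libraries, so its B cell values carry a large counting error. The span was 41.2 times for S100a6 (797 FPKM in young homozygous non-BT cells, 19.4 FPKM in young wild-type B cells), 51.9 for Anxa1, 40.4 for Anxa2, 11.8 for Lgals1 and 10.7 for Ahnak. It was 7.34 for S100a11, 7.28 for Capg, 3.37 for Vim and 2.97 for S100a10.

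In T cells, S100a6, Lgals1 and Anxa2 stood higher in homozygous than in wild-type animals at both ages without overlap between the genotypes, but no gene of the whole table passed the threshold in either age. S100a6 had 284, 251, 308 and 423 FPKM in young homozygous libraries, against 180.1, 124, 164 and 118 FPKM in young wild-type libraries. In old T cells it had 408, 394 and 415 FPKM in homozygous libraries, against 299, 355 and 279 FPKM in wild-type libraries. All homozygous values lay above all wild-type values of the same age, and the old homozygous values were close together. The log2 fold change was 1.10 ± 0.17 in young T cells (limma adjusted p = 0.0624) and 0.39 ± 0.19 in old T cells (adjusted p = 1), and 0.74 ± 0.13 over both ages (adjusted p = 0.0636).

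Lgals1 had 352, 350.2, 376 and 544 FPKM in young homozygous T cells, against 269, 186, 231 and 194 FPKM in young wild-type T cells. In old T cells the homozygous libraries had 373, 315 and 431 FPKM, against 253, 258 and 252 FPKM in the wild-type libraries. The wild-type old values were almost equal, and all 3 homozygous values lay above them. Its log2 fold change was 0.87 ± 0.16 in young (limma adjusted p = 0.0716), 0.54 ± 0.18 in old (adjusted p = 1) and 0.70 ± 0.12 over both ages (adjusted p = 0.0636). Anxa2 had 233, 237, 238 and 261 FPKM in young homozygous T cells, against 187, 166, 161 and 147 FPKM in young wild-type T cells, and in old T cells 207, 230.3 and 307 FPKM in homozygous libraries, against 181, 190.4 and 198 FPKM in wild-type libraries. The genotypes did not overlap at either age, with log2 fold changes of 0.55 ± 0.12 in young (limma adjusted p = 0.103) and 0.36 ± 0.13 in old T cells.

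Anxa1 and Ahnak were without overlap in young T cells only. Anxa1 had 80.0, 57.6, 66.2 and 74.4 FPKM in young homozygous libraries, against 55.8, 46.8, 29.7 and 34.0 FPKM in young wild-type libraries (log2 fold change 0.76 ± 0.30, limma adjusted p = 0.481). Ahnak had 20.8, 16.4, 13 and 18.2 FPKM in young homozygous libraries, against 11.8, 11.2, 10.1 and 8.66 FPKM in young wild-type libraries (0.65 ± 0.16, limma adjusted p = 0.177). In old T cells both genes were on the other side of 0, with log2 fold changes of -0.26 ± 0.34 and -0.24 ± 0.19. S100a4, S100a10, S100a11, Capg and Vim overlapped between the genotypes at both ages, with log2 fold changes of 0.19 to 0.40 in young and 0.13 to 0.28 in old T cells.

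Of the 10 genes, 5 were higher without overlap in young homozygous T cells, where 3.08% of 13193 genes were, and 3 in old homozygous T cells, where 3.44% were. All 10 log2 fold changes were positive in young T cells, with a median of 0.48, while 50% of all genes were positive with a median of 0.00. The 10 genes were chosen with earlier results of these data known, so their shared sign is a description. In old T cells alone 8 of the 10 genes were positive and 2 negative, where 47.8% of all genes were positive. The average over both ages includes the young difference. In that average all 10 were positive, with a median of 0.29, where 48.4% of all genes were positive. None of the 10 was called in it, and 0.00758% of genes were, all of them lower. Limma called 0.0% of genes at an adjusted p under 0.05 in young and in old T cells, although 1144 and 502 genes had an unadjusted p under 0.05, among them 7 and 2 of the 10 genes. The young counts depended on the fit: S100a6 and Lgals1 were called with quantile normalization (limma adjusted p = 0.010 and 0.038) and with array quality weights (0.012 and 0.025), and S100a6 and Anxa2 when only the young groups were fitted (0.037 and 0.038). Over both ages S100a6 and Lgals1 were called without the old libraries numbered 2 (limma adjusted p = 0.033 and 0.030).

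The numbers in the library names fall into 3 stretches, with old replicates 1 and 2 in 1, old replicate 3 and young replicates 1 and 2 in another, and young replicates 3 and 4 in the third. The genotype difference of S100a6 in young T cells was 0.83 within replicates 1 and 2 and 1.36 within replicates 3 and 4. That of Lgals1 was 0.65 and 1.09, and that of Anxa2 0.41 and 0.70, in the same order, and none was called within a stretch. Markers of other cells differed between the same young T cell libraries. The summed level of 13 macrophage markers was 106 to 184 FPKM in homozygous and 379.8 to 523 FPKM in wild-type libraries, that of 8 plasma cell markers 254 to 385 and 748 to 1237 FPKM, and that of 10 monocyte markers, which include the T cell gene Ly6c2, 1679 to 2317 and 985 to 1621 FPKM. Of the monocyte list, Lyz2 alone stood at 1172 to 1541 and 499 to 955 FPKM, and Ly6c2 overlapped. Csf1r of the same list went the other way, with medians of 34.3 and 62.9 FPKM. The 13 neutrophil markers summed to 38.9 to 621 FPKM in homozygous and 29.1 to 305 FPKM in wild-type libraries, and the 9 natural killer markers to 722 to 1026 and 504 to 777 FPKM. Their part in the differences of the 10 genes was not tested.

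**Figure D2:**
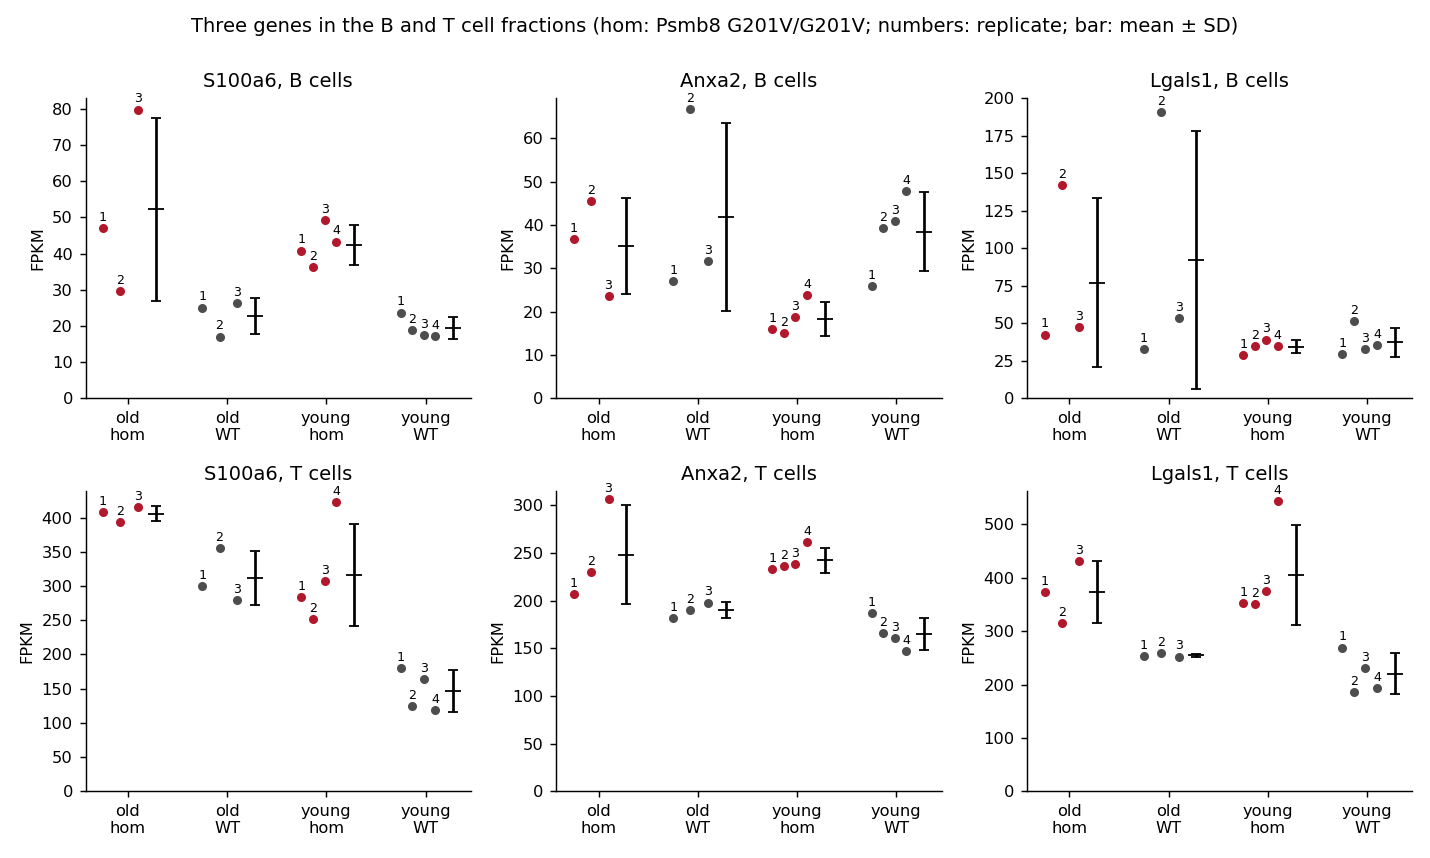
FPKM of S100a6, Anxa2 and Lgals1 in B cells (top) and T cells (bottom) by group, with replicate numbers beside the points and the mean ± SD as a bar. S100a6 is higher in homozygous animals in both cell types, Anxa2 is higher in homozygous T cells and lower in young homozygous B cells, and the old B cell libraries numbered 2 have the highest Lgals1, 142 and 191 FPKM.

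In B cells, S100a6 rose in homozygous animals over both ages, while Anxa2 stood lower in young homozygous B cells. S100a6 had 40.8, 36.2, 49.3 and 43.3 FPKM in young homozygous B cells, against 23.7, 19.0, 17.5 and 17.2 FPKM in young wild-type B cells. In old B cells it had 47.1, 29.7 and 79.8 FPKM in homozygous libraries, against 25, 17.0 and 26.2 FPKM in wild-type libraries. The genotypes did not overlap at either age. The log2 fold change was 1.09 ± 0.23 in young, 1.07 ± 0.27 in old and 1.08 ± 0.18 over both ages, with limma adjusted p of 0.0972, 0.302 and 0.0283.

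S100a6 was thus 1 of 10 genes called over both ages, where 0.693% of 12269 genes were called, 0.22% higher and 0.473% lower. The call lay close to the threshold. It was kept without old wild-type replicate 1, old homozygous replicates 2 and 3 or young wild-type replicate 2, and missed without each of the other 10 of the 14 libraries, with adjusted p of 0.050 to 0.073 in those, while the log2 fold change stayed between 0.91 and 1.25. It was also missed with no filter on low values (adjusted p = 0.081), and without the library labelled Psmb9 it was 0.059. In young B cells alone S100a6 was called with array quality weights (limma adjusted p = 0.011), with only the young groups fitted (0.002) and with the replicate number as a block (0.014). Within young replicates 1 and 2 the difference was 0.83, and within replicates 3 and 4 it was 1.36.

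Anxa2 had 16, 15.0, 18.7 and 23.7 FPKM in young homozygous B cells, against 25.9, 39.3, 40.9 and 47.7 FPKM in young wild-type B cells. All 4 homozygous values lay below all 4 wild-type values, with a log2 fold change of -1.01 ± 0.28 (limma adjusted p = 0.195) and of -0.997 and -1.03 within the 2 stretches of young library names. In old B cells the groups overlapped, with 36.7, 45.5 and 23.5 FPKM in homozygous and 27.0, 66.6 and 31.7 FPKM in wild-type libraries. The young difference was called with array quality weights (limma adjusted p = 0.036), with only the young groups fitted (0.024) and with the replicate block (0.022).

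Ahnak was the third gene without overlap in young B cells, at 5.79, 4.32, 4.30 and 3.87 FPKM in homozygous and 1.47, 3.21, 3.21 and 3.77 FPKM in wild-type libraries. Its log2 fold change of 0.54 ± 0.31 had a limma adjusted p of 0.627. Of the 10 genes, 2 were thus higher and 1 lower without overlap in young B cells, where 2.19% and 5.63% of genes were, and 1 was higher in old B cells, where 6.04% were. Of all genes, 0.0734% were called in young B cells (0.0571% lower) and 0.00815% in old B cells, and none of the 10 was among them. Lgals1 did not separate the genotypes, with 28.7, 34.8, 39.2 and 34.7 FPKM in young homozygous and 29.6, 51.5, 33.0 and 35.2 FPKM in young wild-type B cells. In old B cells it had 42.4, 142 and 47.2 FPKM in homozygous and 32.8, 191 and 53.3 FPKM in wild-type libraries, so that the library numbered 2 was highest in both genotypes. Capg and Vim differed by 0.03 ± 0.10 and 0.09 ± 0.12 on the log2 scale in young B cells.

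Markers of other cells differed in the B cell libraries as well. The 13 macrophage markers summed to 236 to 424 FPKM in young homozygous and 916 to 1218 FPKM in young wild-type B cells, and to 175 to 677 FPKM in old homozygous and 313 to 965 FPKM in old wild-type B cells. The 8 plasma cell markers summed to 996 to 1425 FPKM in young homozygous and 1940.2 to 3133 FPKM in young wild-type B cells, the 10 monocyte markers to 194 to 252 and 338 to 456 FPKM, and the 10 erythroid markers to 55.6 to 188 and 209.5 to 1036 FPKM. Anxa2 and the macrophage sum were lower in the same young homozygous libraries, and S100a6 was higher in them. Cd163, a macrophage scavenger receptor gene, fell by 3.16 ± 0.36 on the log2 scale in young homozygous B cells (limma adjusted p = 0.0029). Their part in either difference was not tested.

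**Figure D3:**
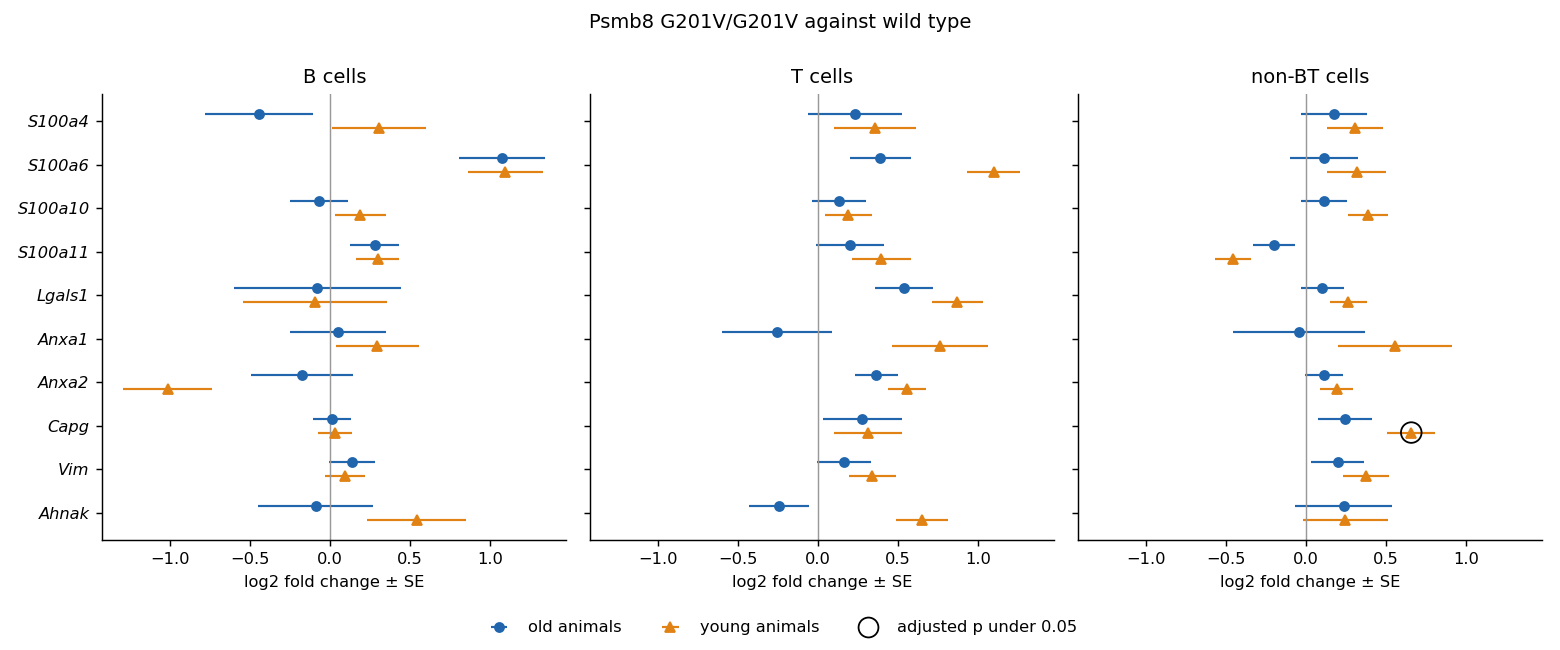
Log2 fold change of homozygous over wild type (± SE) for the 10 genes in B, T and non-BT cells, with old animals as blue circles and young animals as orange triangles, and a black ring where the limma adjusted p is under 0.05. All 10 young T cell values are above 0, S100a6 is near 1.1 in B cells at both ages and in young T cells, and only Capg in young non-BT cells is ringed.

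In young non-BT cells Capg rose and S100a11 stood lower in homozygous animals. Capg had 224, 227, 219 and 202 FPKM in homozygous libraries, against 155, 131, 151 and 117 FPKM in wild-type libraries. The genotypes were apart, with a log2 fold change of 0.66 ± 0.15 (limma adjusted p = 0.0433), which made it 1 of 10 genes called where 1.69% of 13587 genes were, 0.228% higher and 1.46% lower. The difference was 0.66 within each stretch of young library names. The call was missed without any single one of the 8 young libraries (adjusted p of 0.070 to 0.139), with no filter (0.090), with the replicate block (0.091) and within a stretch (0.644 and 0.688). S100a11 had 1307, 983, 1147 and 995 FPKM in homozygous libraries, against 1623, 1297, 1561 and 1586 FPKM in wild-type libraries. One homozygous value lay above the lowest wild-type value, and the log2 fold change was -0.46 ± 0.11 (limma adjusted p = 0.0613). It was called with the replicate block (adjusted p = 0.033), with array quality weights (0.018) and with only the young groups fitted (0.048).

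S100a10 and Vim were also without overlap in young non-BT cells. S100a10 had 291, 293, 349 and 328 FPKM in homozygous libraries, against 227, 232, 269 and 236 FPKM in wild-type libraries (log2 fold change 0.38 ± 0.13, limma adjusted p = 0.161). Vim had 448, 385, 400.2 and 406 FPKM in homozygous libraries, against 346, 272, 321 and 326 FPKM in wild-type libraries (0.38 ± 0.14, limma adjusted p = 0.249). Of the 10 genes, 3 were thus higher without overlap where 4.87% of all genes were. The other 6 genes overlapped, with log2 fold changes of 0.19 to 0.56 and S100a11 the only negative value of the 10.

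In old non-BT cells none of the 10 genes was without overlap, where 7.47% of all genes were, and none was called. Limma called 0.0% of all genes there, with 785 at an unadjusted p under 0.05. Capg had 213, 171 and 209.5 FPKM in homozygous and 129.7, 225 and 157 FPKM in wild-type libraries. Over both ages Capg was at 0.45 ± 0.11 (limma adjusted p = 0.082, 1.18% of genes called, 0.199% higher and 0.986% lower), and without the old libraries numbered 2 it was called at 0.61 (adjusted p = 0.002) together with Vim at 0.37 (adjusted p = 0.014). The 10 monocyte markers summed to 18653 to 21294 FPKM in young homozygous and 11922 to 16212 FPKM in young wild-type non-BT cells, the 8 plasmacytoid dendritic markers to 182 to 279 and 877 to 980.4 FPKM, the 9 conventional dendritic markers to 512 to 732 and 835 to 988 FPKM, and the 8 plasma cell markers to 439 to 513 and 788 to 1487 FPKM. Of the monocyte list, Lyz2 alone stood at 16660 to 19342 FPKM in young homozygous and 10481 to 14560 FPKM in young wild-type non-BT cells. The part of these markers in the differences was not tested.

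The genotype effect of Anxa2 and of S100a6 differed between cell types. For Anxa2 the effect over both ages was 0.46 ± 0.09 in T cells and -0.60 ± 0.21 in B cells, and in the fit over all 42 libraries it was higher by 1.05 ± 0.21 in T than in B cells (limma adjusted p = 0.022; 1 of 10 genes where 0.132% of 15143 were called). The call was kept without each of 41 of the 42 libraries, and was missed without old homozygous T cell replicate 3 (adjusted p = 0.074), with quantile normalization (adjusted p = 0.064) and without the Psmb9-labelled libraries (0.085). For S100a6 the effect was 0.22 ± 0.14 in non-BT cells and 1.08 ± 0.18 in B cells, a difference of -0.87 ± 0.21 (limma adjusted p = 0.0479; 1 of 10 genes where 0.555% were called). That call was kept without each of only 9 of the 42 libraries. It was missed without an animal block (limma adjusted p = 0.085), with a pseudocount of 0.1 (0.062) and without the Psmb9-labelled libraries. Between non-BT and T cells none of the 10 genes was called where 0.357% were, with S100a11 at -0.63 ± 0.16 (limma adjusted p = 0.0761).

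Among the other galectin genes, Lgals3, which macrophages express strongly, also differed. It averaged 135 ± 34.2 FPKM in young homozygous and 68.8 ± 12.2 FPKM in young wild-type T cells, and 25.5 ± 2.24 FPKM in young homozygous and 37.5 ± 4.31 FPKM in young wild-type B cells (SD, n = 4 each). The difference of its effect between T and B cells was 1.46 ± 0.24 (limma adjusted p = 0.0031), and between non-BT and B cells 1.19 ± 0.24 (adjusted p = 0.0132). Of the 12 other S100 genes, 10 other annexins, 8 other galectins and 17 genes of binding partners and receptors, none was called between the genotypes in B, T or non-BT cells at either age. The same held for 32 actin, myosin and filament genes and for 28 genes of activated and memory T cells. In 538 tests over these 6 lists limma called 0 and gave an unadjusted p under 0.05 in 72, or 13.4%, against 8.59% over all genes in the same 6 comparisons. These tests share genes and libraries, and the lists were chosen with earlier results known. The 2 shares are therefore descriptions and say nothing of a shift of these lists. In young T cells, where 50% of all genes were positive, 15 of the 28 activated and memory genes were positive, with a median of 0.04. The summed level of the 28 genes was higher without overlap, at 7816 to 9806 FPKM in young homozygous and 5709 to 7256 FPKM in young wild-type T cells. Of the other S100 genes, 6 could be tested in young T cells and all were positive with a median of 0.85. They include S100a8 and S100a9, which neutrophils make, and whose groups overlapped widely. S100a8 ran from 9.78 to 266 FPKM (median 104) in young homozygous and from 9.95 to 112 FPKM (median 17.3) in young wild-type T cells, and S100a9 from 8.18 to 189.6 FPKM (median 89.5) and from 6.35 to 96.3 FPKM (median 16.1).

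With age, S100a6 rose in T cells of wild-type animals, and was not called in those of homozygous animals. In homozygous T cells S100a6 had 408, 394 and 415 FPKM in old and 284, 251, 308 and 423 FPKM in young libraries, and the ages overlapped through young replicate 4 (log2 fold change 0.38 ± 0.18, limma adjusted p = 0.336). None of the 10 genes was called there, where 1.14% were, 0.993% higher and 0.144% lower. In wild-type T cells it had 299, 355 and 279 FPKM in old wild-type libraries, against 180.1, 124, 164 and 118 FPKM in young wild-type libraries, and every old value lay above every young value. The wild-type log2 fold change was 1.09 ± 0.18 (limma adjusted p = 0.0292), 1 of 10 genes called where 0.227% of 13193 were, 0.205% higher and 0.0227% lower. The value was 1.04 against young replicates 1 and 2 only, and it was then not called (adjusted p = 0.170). Of the old libraries, replicate 3 alone shares a stretch of library names with these young ones, at 279 FPKM against 180.1 and 124 FPKM, and old replicates 1 and 2 share theirs with no young library. The call was kept without old replicate 1 or young replicate 1 and missed without each of the other 5 of the 7 libraries (adjusted p up to 0.154). It was also missed without both old libraries numbered 2 (0.109), without the library labelled Psmb9 (0.079), with no filter (0.077) and with only these 2 groups fitted (0.120).

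The test of the difference between the genotypes in the age change of S100a6 in T cells gave -0.71 ± 0.25 (limma adjusted p = 0.998), with 0.0% of genes called and 511 at an unadjusted p under 0.05. All 10 genes had a negative value in that test, where 47.7% of all genes were positive, and none was called. The test subtracts the young genotype difference, which was positive for all 10, so this shared sign is a description. Capg and Ahnak were also higher without overlap in old wild-type T cells. Capg had 111, 221 and 129 FPKM in old and 99.5, 81.2, 78.1 and 89.8 FPKM in young wild-type libraries, and Ahnak 17.0, 14.7 and 17.8 FPKM in old and 11.8, 11.2, 10.1 and 8.66 FPKM in young wild-type libraries. Their log2 fold changes were 0.75 ± 0.23 and 0.62 ± 0.18 (limma adjusted p = 0.268 and 0.224). Of the 10 genes, 3 were higher without overlap where 5.98% of all genes were, and in homozygous T cells no gene of the 10 was without overlap, where 6.5% of all genes were higher and 5.61% lower.

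Of 28 activated and memory T cell genes, 21 were positive in old over young homozygous T cells (median 0.44) and 24 in wild-type T cells (median 0.50). Of all genes, 46.7% were positive in homozygous and 48.6% in wild-type T cells. The lists were chosen with earlier results known, so the counts of signs in them are descriptions. Cxcr3, a chemokine receptor of effector and memory T cells, rose in both, by 0.89 ± 0.17 in homozygous and 0.97 ± 0.17 in wild-type T cells (limma adjusted p = 0.027 and 0.0358), and Gzma fell by 1.34 ± 0.28 in homozygous T cells (adjusted p = 0.0352). None of 13 naive T cell genes was positive in either genotype (medians -0.53 in homozygous and -0.55 in wild-type T cells), and none was called. All 8 regulatory T cell genes were positive in both, none of them called. Of 13 lists of cell markers, some also differed without overlap between old and young wild-type T cells, and only such ones are given. The 8 plasma cell markers summed to 1699 to 6208 FPKM in old and 748 to 1237 FPKM in young libraries, the 10 B cell markers to 67.3 to 199.7 and 52.4 to 63.4 FPKM, the 9 natural killer markers to 450.0 to 500.2 and 504 to 777 FPKM, and the 9 conventional dendritic markers to 213 to 355 and 418 to 491 FPKM. Their part in the rise of S100a6 was not tested. The galectin-related gene Lgalsl rose by 1.46 ± 0.29 in old homozygous T cells (adjusted p = 0.0296).

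In non-BT cells S100a10 and Lgals1 fell in homozygous animals. S100a10 had 156, 144 and 205 FPKM in old homozygous libraries, against 291, 293, 349 and 328 FPKM in young homozygous libraries. Lgals1 had 149, 171 and 160.3 FPKM in old homozygous libraries, against 221, 275, 337 and 276 FPKM in young homozygous libraries. The ages did not overlap for either gene. S100a10 fell by 0.91 ± 0.14 on the log2 scale and Lgals1 by 0.77 ± 0.12 (limma adjusted p = 0.00411 and 0.00624), 2 of 10 genes called where 2.16% of 13587 were, 1.42% higher and 0.736% lower. Both calls held without each of the 7 libraries (adjusted p up to 0.029 and 0.043). Against young replicates 1 and 2 only, the values were -0.81 and -0.62 and neither was called (adjusted p = 0.155 and 0.127). Within the stretch of names that old replicate 3 shares with them, S100a10 had 205 FPKM in the old library and 291 and 293 FPKM in the young libraries, and Lgals1 160.3 FPKM in the old library and 221 and 275 FPKM in the young libraries.

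In wild-type non-BT cells the same genes had values of the same sign that were not called. S100a10 had 168, 127 and 171 FPKM in old and 227, 232, 269 and 236 FPKM in young wild-type libraries (-0.64 ± 0.14, limma adjusted p = 0.0716). Lgals1 had 140.3, 151 and 157 FPKM in old and 215, 246, 248 and 206 FPKM in young wild-type libraries (-0.61 ± 0.12, limma adjusted p = 0.062). The difference between the genotypes was -0.27 ± 0.19 for S100a10 and -0.16 ± 0.18 for Lgals1, and 0.0% of genes were called in that test, with 723 at an unadjusted p under 0.05. None of the 10 genes was called in wild-type animals, where 0.199% of genes were. Of the 10 genes, 5 in homozygous and 4 in wild-type non-BT cells were lower in old animals without overlap, where 8.54% and 8.96% of all genes were: S100a10, Lgals1, Anxa2 and Ahnak in both and Vim in homozygous animals. Ahnak had 14.9, 10.1 and 26.7 FPKM in old and 28, 32.7, 34.7 and 29.2 FPKM in young homozygous libraries.

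Of 13 lists of cell markers, several differed without overlap between the same libraries, and of the lists only such ones are given. The 9 natural killer markers summed to 347 to 940.4 FPKM in old and 1580.1 to 2492 FPKM in young homozygous non-BT cells, and to 340.2 to 817 FPKM in old and 1739.9 to 2288 FPKM in young wild-type non-BT cells. In homozygous non-BT cells the 10 monocyte markers summed to 8387 to 15876 FPKM in old and 18653 to 21294 FPKM in young libraries, and the 13 macrophage markers to 432 to 741 and 774 to 782 FPKM. Of the monocyte list, Lyz2 alone stood at 7033 to 14194 FPKM in old and 16660 to 19342 FPKM in young libraries. The 8 plasma cell markers went the other way, at 1862 to 4448 FPKM in old and 439 to 513 FPKM in young libraries, as did the 10 B cell markers, at 96.7 to 205 and 54.4 to 70.5 FPKM, and the 7 platelet markers, at 72.7 to 142 and 38.3 to 67.5 FPKM. The cytotoxic genes Gzma, Gzmb and Nkg7 of the activated and memory list fell in old animals of both genotypes, by 1.98 ± 0.31, 1.32 ± 0.20 and 1.52 ± 0.21 in homozygous animals (limma adjusted p = 0.0049, 0.00451 and 0.00289). Tmsb10, an actin-binding thymosin, fell by 0.53 ± 0.12 in homozygous animals (adjusted p = 0.0371). The part of these markers in the fall of S100a10 and Lgals1 was not tested. Anxa1 varied most of the 10 genes among old non-BT libraries, with 1248, 399 and 663 FPKM in homozygous and 673, 1252 and 429 FPKM in wild-type libraries.

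**Figure D4:**
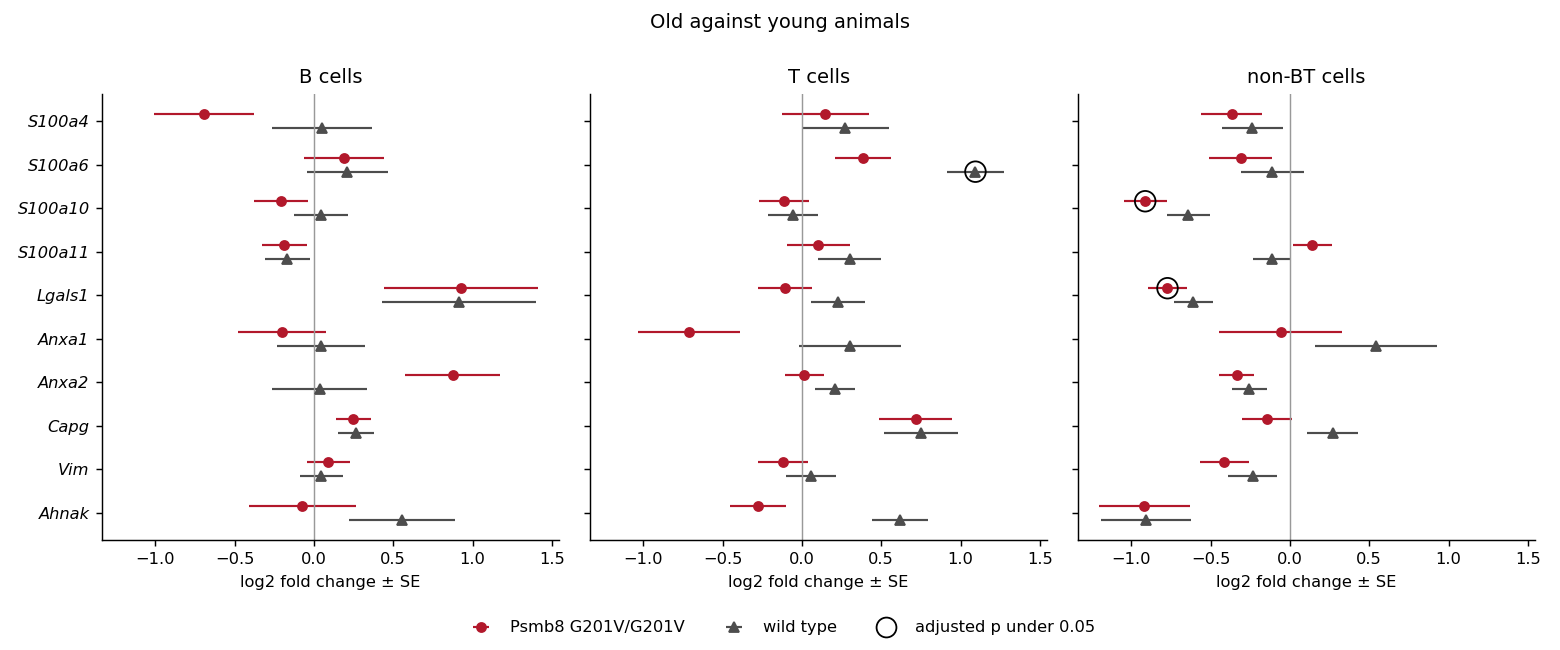
Log2 fold change of old over young animals (± SE) for the 10 genes in B, T and non-BT cells, with homozygous animals as red circles and wild-type animals as grey triangles, and a black ring where the limma adjusted p is under 0.05. S100a6 in wild-type T cells (1.09) and S100a10 (-0.91) and Lgals1 (-0.77) in homozygous non-BT cells are ringed.

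In B cells none of the 10 genes was called with age. Limma called 0.0% of 12269 genes in wild-type animals (768 at an unadjusted p under 0.05) and 0.0163% in homozygous animals. Capg had 593, 636 and 675 FPKM in old and 589.8, 520.0, 515 and 511 FPKM in young homozygous B cells and was higher in old animals without overlap, with a log2 fold change of 0.25 ± 0.11 (limma adjusted p = 0.336). Lgals1 was also without overlap, at 42.4, 142 and 47.2 FPKM in old and 28.7, 34.8, 39.2 and 34.7 FPKM in young homozygous B cells (0.93 ± 0.48, limma adjusted p = 0.400), and without old replicate 2 the value was 0.38 (adjusted p = 0.825). That made 2 of 10 genes higher without overlap where 5.57% of all genes were. Neither genotype had a change of S100a6 with age in B cells beyond its spread, at 0.19 ± 0.25 in homozygous and 0.21 ± 0.25 in wild-type animals. All 12 genes of memory and age-associated B cells were positive in old homozygous B cells (median 0.85), and 11 of 12 in wild-type B cells (median 0.45), with none called. Of all genes, 45.3% were positive in homozygous and 45% in wild-type B cells. This list too was chosen with earlier results known, so its counts are descriptions.

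The 10 genes varied together most closely in T cells. Over the 14 T cell libraries all 45 pairs of genes had a positive Pearson correlation of log2(FPKM + 1), with a median of 0.56, and 38 of 45 were positive (median 0.41) after the group means had been removed. In non-BT cells 32 of 45 pairs were positive (median 0.42), and in B cells 24 of 45 (median 0.10). The closest pair in T cells was Lgals1 with Anxa2 (0.90), and with group means removed S100a11 with Capg (0.88) and S100a6 with Lgals1 (0.86). In B cells S100a6 and S100a11 went together (0.76, and 0.87 with group means removed), while Anxa2 went against both (-0.65 with S100a6 and -0.80 with S100a11) and with Lgals1 (0.66). In non-BT cells Anxa2 with Vim (0.92) and S100a10 with Ahnak (0.92) were closest. These correlations are descriptions over libraries that share groups, depth and RNA of other cells.

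The genes outside the list whose pattern over 14 libraries was most like the mean of the 10 were Prdx5 (Pearson's r = 0.89), Praf2 (0.87), Mocos (0.87), Tcrg-C2 (0.86) and Ifitm2 (0.85) in T cells. In non-BT cells they were Pilrb1 (0.98), Tagln2 (0.96), Smpdl3a (0.94), Ptgir (0.94) and Kctd10 (0.93). In B cells they were Anapc13 (0.86), Fdx1 (0.84), Camp (0.83), Cox6b1 (0.81) and Bax (0.80). Camp, a neutrophil granule gene, ran only between 0.0883 and 1.96 FPKM in B cells. For Lgals1 alone in B cells the closest gene was the inflammasome adaptor Pycard (0.95; 84.5 to 209 FPKM), a choice made after its values were seen.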

How the data were processed

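RNA of B, T and non-BT spleen cells was extracted with RNeasy micro columns and made into libraries with SMART-Seq HT and Nextera XT, per the labels' protocols, a preparation without molecular identifiers or strand. The authors deposited FPKM values per gene. HISAT2 2.1.0, Cufflinks 2.2.1, Cuffdiff and GRCm38.p4 are named in the submitters' processing notes. FPKM hold no counts, so depth is an estimate from the worth of 1 fragment in 5671 genes that have 1 transcript, of 1500 bases or more. All 42 libraries were used and 0 other value columns were left unread.

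From these values, log2(FPKM + 1) was fitted with limma 3.58.1 in R 4.3.3 with an intensity trend, per cell type with its 4 groups together, for genes at 1 FPKM or more in at least 3 libraries, with Benjamini-Hochberg adjustment over all genes and a threshold of 0.05. Cell types were compared in 1 fit of the 42 libraries that treats those with the same age, genotype and number in their titles as a block (correlation 0.0771). This animal block takes them to come from the same animal, which the labels do not state. Symbols came from GENCODE (47219 of 47719 identifiers matched) and start regions from RefSeq. The fit was tested on simulated data with 200 changed genes. The genes described and the 22 lists were chosen with earlier results of these data known. All 10 genes are named, from the other lists up to 4 genes per comparison with the smallest adjusted p among those called, and per cell type the 5 genes most like the mean of the 10 by Pearson's r. S100a8, S100a9 and Pycard were named after their values were seen. Same-numbered samples deviated together in 12 of 21 pairs (r over 0.1), in every pair only in old B cells (0.19, 0.29 and 0.19), where the numbers were taken to pair the samples and the block left the count of the 10 genes called at 0. Alternatives changed the pseudocount, filter, normalization, weights, block and libraries. Promoters and proteins without a table entry were not used here.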

Additional observations from a re-analysis of the deposited data

Results flagged for a closer look

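In 5 of 60 sets of 4 libraries, each set being 1 gene in 1 young group, 1 library lay far from the others. Chance alone gives about 1 set in 20, but the genes share libraries, so the sets are not independent. The 5 were S100a4 at 243 FPKM in young homozygous non-BT replicate 4, S100a11 at 582 FPKM and Lgals1 at 544 FPKM in young homozygous T cell replicate 4, Capg at 589.8 FPKM in young homozygous B cell replicate 1 and Vim at 155 FPKM in young wild-type B cell replicate 2.

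The genotype effect differed between cell types for S100a6, by -0.87 on the log2 scale in non-BT minus B cells, and for Anxa2, by 1.05 in T minus B cells.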

How the results depend on the processing

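Of 5850 recomputed fold changes of the 10 genes, 5701 kept their side of the threshold, 94 lost it and 55 gained it, and none that was called changed sign. The number of the 10 genes called moved as follows. With no filter it was 0 over both ages in B cells, 0 with age in wild-type T cells and 0 in young non-BT cells. With the replicate block, where the pairing is by number only outside old B cells, it was 2 in young B cells, 2 over both ages in B cells and 1 over both ages in non-BT cells. With array quality weights it was 2 in young B cells, 2 in young T cells, 2 over both ages in T cells, 3 in young non-BT cells and 1 over both ages in non-BT cells. With only the compared groups fitted it was 2 in young B cells, 2 in young T cells, 0 with age in wild-type T cells and 4 in young non-BT cells. With quantile normalization it was 2 in young T cells, 2 over both ages in T cells and 0 for the genotype effect of T minus B cells. Without the Psmb9-labelled libraries it was 0 over both ages in B cells, with age in wild-type T cells, in young non-BT cells and for the genotype effects of T minus B and non-BT minus B cells. With young replicates 1 and 2 only it was 0 with age in homozygous non-BT cells and in wild-type T cells and 0 in young non-BT cells, where replicates 3 and 4 alone also gave 0. Without the old libraries numbered 2, chosen after seeing the data, it was 2 over both ages in T cells, 0 with age in wild-type T cells, 2 over both ages in non-BT cells, 4 for the genotype effect of non-BT minus B cells and 1 for non-BT minus T cells. Without an animal block, and with a pseudocount of 0.1, the genotype effect of non-BT minus B cells had 0. Leaving out 1 library at a time gave 0 to 1 in old B cells, over both ages in B and T cells, in young T cells, in young non-BT cells, with age in T cells of either genotype and for the genotype effects of T minus B and non-BT minus T cells. It gave 0 to 2 over both ages in non-BT cells, 0 to 3 for non-BT minus B cells, 2 to 4 with age in homozygous non-BT cells and 9 to 10 between non-BT and B cells. The causes were not tested. Depth is an estimate, so counting error is unknown for single genes.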
